A study of Mus musculus with 15 samples.

Results

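The genes described here are 48 genes of the actin cytoskeleton and the immune synapse, the contact that a T cell forms with an antigen-presenting surface. They were chosen by name, and all 48 have a row in the deposited count tables, which list 17493 genes. All 48 also passed the filter on low counts, which left 10831 genes for testing.

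The libraries hold RNA of CD8+ OT-I T cells, which were taken from the spleen and lymph nodes. The mice were female and of the strain C57BL/6-Tg(TcraTcrb)1100Mjb/Crl, whose transgenic T cell receptor recognises an ovalbumin peptide on MHC class I. There are 5 groups of 3 libraries: untreated cells at 0 h, cells cultured for 8 h or 22 h with immunofilaments (IF), and cells cultured for 8 h or 22 h with dendritic cells (DC). Immunofilaments are synthetic filaments, here carrying MHC loaded with the peptide SIITFEKL together with interleukin-2, and were given at 5 ng/ml. The DC groups received 20000 dendritic cells, which the labels call Flt-3Ligand dendritic cells, pulsed with SIITFEKL, for 50000 T cells per well. All libraries share the single transgenic receptor, so they describe T cells of 1 specificity. Interleukin-2 is named for the filaments alone, and the unstimulated cells are labelled 0 h, so peptide, cytokine, culture time and antigen-presenting surface cannot be told apart in the comparisons with unstimulated cells. IF and DC at the same time point differ in the surface and the named cytokine, which cannot be told apart either, and the times of a stimulus differ by label in culture time. After culture, sorting kept living CD8+ cells without CD103. The titles mark the replicates Don1 to Don3 in every group. What the mark stands for, and whether a number is the same animal across groups, is not stated, so the p-values measure the spread between these libraries, which may be partly technical. Since these are bulk samples, fewer cells of a type and less RNA per cell cannot be told apart.

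Actin monomers polymerise into filaments that push the cell membrane outward and carry receptors across the synapse. Profilin and the thymosins bind monomers, the Arp2/3 complex starts branches when WASP-family proteins activate it, cofilin and gelsolin cut filaments, and myosin II pulls on them. Talins, filamins and ERM proteins tie actin to integrins and the membrane.

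Library totals ran from 2892874 to 19806730 counts. In IF 22 h replicates 2 and 3, mitochondrial ribosomal RNA made up 0.146% to 0.179% of counts, against 1.82% to 4.49% in the other 13 libraries. In both of these libraries 127 genes lay more than 2-fold below every other library, among them the members Wasf2 and Actn4, and 1 gene lay above. Results that rest on IF 22 h are therefore also given without both libraries, which leaves 1 library in that group, assumed to vary like the others. A call can be lost there because the group is smaller, so a loss does not show that these libraries made the call. All 10 T cell markers examined, such as Cd3e and Cd8a, had counts in every library, and their summed share ran from 0.952% to 1.04% of counts in unstimulated cells and from 0.525% to 0.737% in stimulated cells. The 20 dendritic cell markers summed to 0.0564% to 0.133% in unstimulated cells and, at 8 h, to 0.0215% to 0.0493% with IF and 0.0887% to 0.128% with DC. At 22 h the sums were 0.0396% to 0.0623% with IF and 0.0519% to 0.0700% with DC. Between IF and DC this share differed by -0.0768 percentage points at 8 h (two-sided exact permutation test, p = 0.1, the smallest that 3 against 3 libraries allow) and by -0.0155 at 22 h (p = 0.2). The dendritic cell transcription factor Zbtb46 had 0 counts in all unstimulated and IF 8 h libraries and 8 to 23 counts at DC 8 h, 1 to 8 at IF 22 h and 4 to 8 at DC 22 h. The lists of B cell, myeloid, and erythrocyte and neutrophil markers reached at most 0.00373%, 0.00301% and 0.000867% of counts in any library. The part of these markers in the results below was not tested.

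The 48 genes together took a smaller share of the counts in every stimulated library than in any unstimulated one. Their summed share was 5.24% ± 0.15 of all counts in unstimulated cells (SD, n = 3). It was 3.79% ± 0.19 with IF and 3.71% ± 0.19 with DC at 8 h, and 4.58% ± 0.13 with IF and 3.92% ± 0.11 with DC at 22 h. The unstimulated libraries ranged from 5.09% to 5.39%, and the highest stimulated library, at IF 22 h, reached 4.73%. Without Actb, which encodes beta-actin, the other 47 genes summed to 3.97% ± 0.10 in unstimulated cells, 2.97% ± 0.15 at IF 8 h and 2.98% ± 0.21 at DC 8 h. At 22 h these 47 genes stood at 3.89% ± 0.36 with IF, with a range of 3.47% to 4.14% that overlapped the unstimulated 3.87% to 4.07%, and at 3.13% ± 0.13 with DC. IF 22 h replicate 1 was the 3.47% and lay below the unstimulated range, and the overlap came from replicates 2 and 3, at 4.14% and 4.06%, the libraries low in mitochondrial ribosomal RNA. With all 48 genes replicate 1 was at 4.48%.

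**Figure D1:**
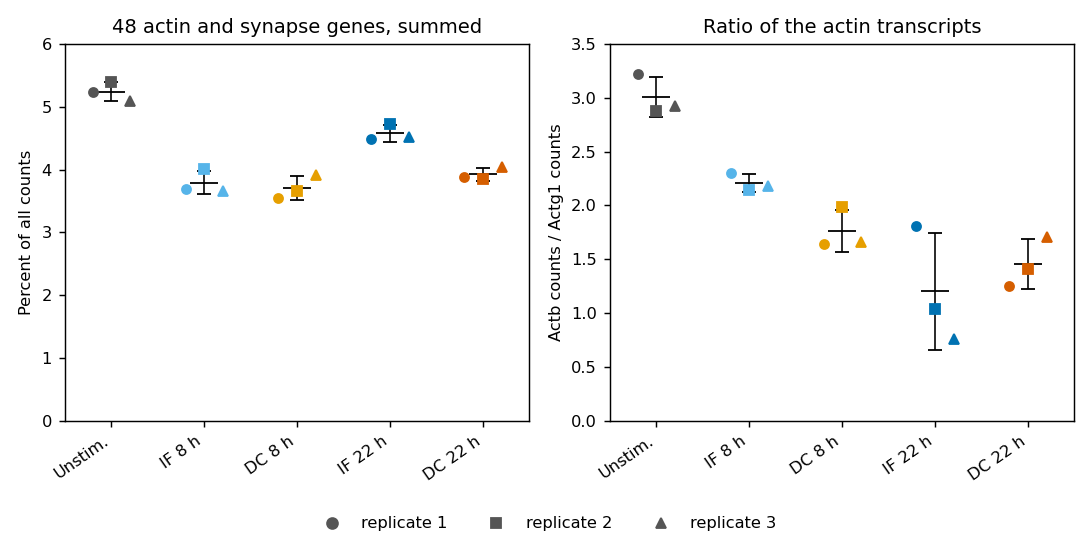
Left, summed share of the 48 genes in the counts of each library (percent of all counts); right, counts of Actb divided by counts of Actg1 in each library. Points are libraries, with replicates 1 to 3 as circle, square and triangle, and bars give the mean ± SD of each group of 3. The unstimulated libraries lie above all 12 stimulated ones in both plots.

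Tested one by one with edgeR's quasi-likelihood test and Benjamini-Hochberg adjustment over all genes, every member past the threshold of 0.05 against unstimulated cells was lower in the stimulated cells. Here and below, a fall or rise is relative to the other RNA of a library, so amounts per cell cannot be read from it. At IF 8 h 19 members fell, where 7.76% of all genes tested were past the threshold and 4.72% were lower. At DC 8 h 17 members fell, against 6.82% of all genes in either direction and 4.07% lower. At IF 22 h 6 members fell, against 6.08% and 3.44%, and at DC 22 h 22 members fell, against 7.76% and 4.35%. Among the 1408 genes with a mean of at least 100 CPM (counts scaled to a common library total after TMM normalisation), where 37 of the members belong, the lower share was 13.8%, 13.4%, 8.38% and 17.3% in the same order, and 18, 16, 6 and 21 of the 37 members were lower. The 4 comparisons share the unstimulated libraries, so they are not independent of each other. Over all 5 groups together 18 members differed, against 11.8% of all genes, and 16 without IF 22 h replicates 2 and 3.

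The median log2 fold change of the 48 genes was -0.49 with IF and -0.44 with DC at 8 h, beside 0.02 and 0.04 for all genes tested. At 22 h it was -0.25 with IF and -0.49 with DC, beside 0.01 and 0.04. The IF 22 h median was -0.33, beside -0.01, without IF 22 h replicates 2 and 3. With library totals alone as the scaling, the median of all genes moved to 0.26, 0.30, 0.22 and 0.37 in the order IF 8 h, DC 8 h, IF 22 h and DC 22 h, and that of the members to -0.24, -0.17, -0.05 and -0.17. Under that scaling 11 members fell with IF and 11 with DC at 8 h, and 4 with IF and 8 with DC at 22 h. Actg1 was then higher than in unstimulated cells at IF 22 h and DC 22 h, and Rdx at DC 22 h. The calls lost at IF 8 h were those of Actb, Actg1, Pfn1, Wdr1, Actr3, Was, Myl6 and Myl12a (adjusted p 0.0566 to 0.286), and at DC 8 h those of Pfn1, Coro1a, Capzb, Actr3, Was and Tln1 (0.0523 to 0.402). At IF 22 h the calls of Arpc1b and Rhoh were lost (0.0757 and 0.111). At DC 22 h those of Cap1, Coro1a, Capzb, Arpc1b, Arpc2, Arpc4, Vasp, Myl12a, Ezr, Msn, Tln1, Rac2, Rhoa and Rhoh were lost (0.0575 to 0.659), and 12 of these 14, all but Arpc4 and Tln1, were also lost when the compared groups alone were fitted (0.0522 to 0.128). That fit also lost Capzb and Actr3 at DC 8 h (0.0666 and 0.0768). In 17 members all 12 stimulated libraries lay below all 3 unstimulated ones, as in 5.35% of all genes, and in 0 members did all lie above, as in 2.82% of all genes. These shares cover genes of every level. Those among genes with a mean of at least 100 CPM, where 37 members belong, are not given here. Leaving out 1 library at a time, in 15 refits, 10 of the 19 calls for IF and 11 of the 17 for DC at 8 h held in every refit, as did 4 of the 6 for IF and 10 of the 22 for DC at 22 h. The count at IF 8 h was 12 without IF 8 h replicate 1 and 11 without replicate 3, and the count at IF 22 h was 12 without DC 22 h replicate 2 and 4 without unstimulated replicate 2 or IF 22 h replicate 3. For DC at 22 h the count dropped to 10, 11 and 12 when unstimulated replicate 1, 2 or 3 was left out, and to 14 without DC 22 h replicate 2. In IF 22 h replicate 1, all 6 members called at IF 22 h lay below the unstimulated range. For the refits without 1 library, here and below, shares of all genes called are not given, so member counts lack a background.

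**Figure D2:**
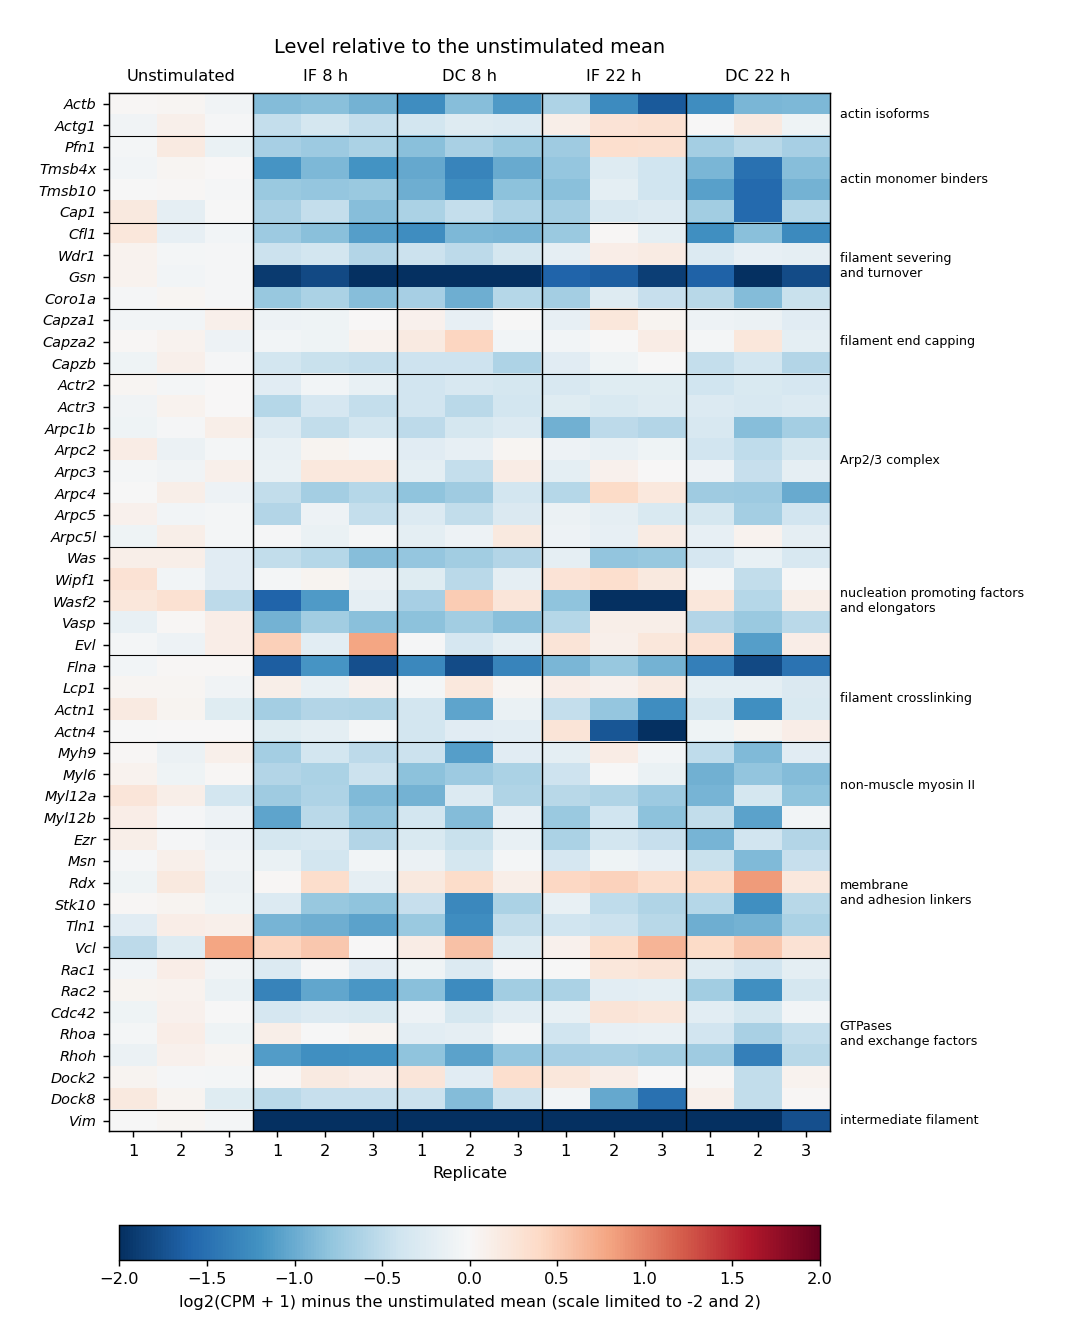
Level of each of the 48 genes (rows, grouped by role) in each of the 15 libraries (columns), as log2(CPM + 1) minus the mean of the 3 unstimulated libraries. Blue is lower and red is higher than unstimulated cells, and the colour scale is limited to -2 and 2. Gsn, Flna and Vim are blue in all 12 stimulated libraries, Actg1 is blue at 8 h and red in all 3 IF 22 h libraries, and Wasf2 and Actn4 are darkest in IF 22 h replicates 2 and 3.

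Actb and Actg1 encode the cytoplasmic actins. Actb was at 14974, 15117 and 14088 CPM in unstimulated cells, and after 8 h at 8073, 8271 and 7655 CPM with IF and 6229, 8152 and 6727 CPM with DC. After 22 h it was at 9584, 6178 and 4613 CPM with IF and 6204, 7806 and 7910 CPM with DC. All 12 stimulated libraries of Actb lay below the unstimulated ones. On the log2 scale Actb fell by 0.88 ± 0.19 (± SE, as in all later folds) at IF 8 h (adjusted p = 0.0111), fell by 1.07 ± 0.19 at DC 8 h (0.00301), fell by 1.12 ± 0.19 at IF 22 h (0.00235) and fell by 1.01 ± 0.19 at DC 22 h (0.00402). The call at IF 8 h was lost without IF 8 h replicate 3 (adjusted p 0.0509), and that at IF 22 h without both libraries low in mitochondrial ribosomal RNA (-0.62, adjusted p = 0.122). Actg1 encodes gamma-actin. The unstimulated libraries held 4645, 5245 and 4824 CPM of Actg1. The 8 h libraries held 3506, 3858 and 3505 CPM with IF and 3802, 4103 and 4048 CPM with DC, and the 22 h libraries 5298, 5926 and 6075 CPM with IF and 4943, 5538 and 4627 CPM with DC. At IF 8 h all 3 libraries of Actg1 lay below the unstimulated range and at IF 22 h all 3 lay above it, while DC 22 h overlapped it. Actg1 fell by 0.44 ± 0.11 at IF 8 h (adjusted p = 0.0219), a call lost without unstimulated replicates 2 or 3 or IF 8 h replicates 1 or 3 (adjusted p 0.0611 to 0.0944). It differed by 0.23 ± 0.11 at IF 22 h (adjusted p = 0.235) and by 0.04 ± 0.11 at DC 22 h (0.879), neither past the threshold under the TMM scaling. With library totals alone Actg1 was higher by 0.44 (adjusted p = 0.0201) at IF 22 h and by 0.37 (adjusted p = 0.0302) at DC 22 h.

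The ratio of Actb to Actg1 counts within a library does not depend on the scaling. It was 3.22, 2.88 and 2.92 in the unstimulated libraries, 2.30, 2.14 and 2.18 at IF 8 h and 1.64, 1.99 and 1.66 at DC 8 h. At 22 h it was 1.81, 1.04 and 0.759 with IF and 1.26, 1.41 and 1.71 with DC. No stimulated library reached the lowest unstimulated one, and IF 22 h replicates 2 and 3 had the lowest values of all. Against unstimulated cells each of the 4 groups gave a two-sided exact permutation p of 0.1, the smallest that 3 against 3 libraries allow, and the ratio was chosen after its values were seen. Both genes have 1128 coding bases in the GENCODE annotation of GRCm38, of which 128 differ, an identity of 88.7%. Reads primed from the poly(A) tail come from the 3′ untranslated regions. In a gapped global alignment of these regions 404 bases matched, 59.2% of the shorter one. This counts single matching bases and is not the length of a shared stretch. The first 60 coding bases, where 9 differ, are shown because they show how closely the coding parts match, with the differing bases in capitals.
Actb: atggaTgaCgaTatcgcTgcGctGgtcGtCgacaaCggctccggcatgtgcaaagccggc
Actg1: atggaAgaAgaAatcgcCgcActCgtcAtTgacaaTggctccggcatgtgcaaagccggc
Actb lies at chr5:142903115-142906754 and Actg1 at chr11:120345690-120348542, both on the minus strand of GRCm38.

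Among the 4 genes that bind actin monomers, 3 fell at 8 h with IF and 3 with DC, and at 22 h 3 fell with DC, with no call for IF. Tmsb4x encodes thymosin beta 4, which holds monomers in reserve. Its level was 7496, 8033 and 7861 CPM without stimulation. With IF it was 3448, 4168 and 3410 CPM after 8 h and 4564, 6516 and 5923 CPM after 22 h. With DC the corresponding values were 3835, 3136 and 3882 CPM and 4123, 2784 and 4303 CPM. It was lower in all 12 stimulated libraries than in any unstimulated one, and highest among them in IF 22 h replicates 2 and 3. Tmsb4x fell by 1.08 ± 0.17 at IF 8 h (adjusted p = 0.000769), fell by 1.11 ± 0.17 at DC 8 h (0.000723) and fell by 1.06 ± 0.17 at DC 22 h (0.00101), and differed by -0.46 ± 0.17 at IF 22 h (0.119). Tmsb10 encodes the related thymosin beta 10. Unstimulated cells had 6108, 6300 and 6089 CPM of Tmsb10. IF-stimulated cells had 3685, 3599 and 3667 CPM at 8 h and 3453, 5396 and 4666 CPM at 22 h, and DC-stimulated cells 3140, 2599 and 3495 CPM and 2903, 2094 and 3204 CPM. Its stimulated libraries also all lay below the unstimulated ones, and the lowest library was DC 22 h replicate 2. Tmsb10 fell by 0.76 ± 0.17 at IF 8 h (adjusted p = 0.0126), fell by 1.00 ± 0.17 at DC 8 h (0.00183) and fell by 1.17 ± 0.17 at DC 22 h (0.000554). These thymosin calls held in all 15 refits.

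Pfn1 encodes profilin 1, which feeds monomers to growing filament ends. Pfn1 stood at 3453, 3997 and 3220 CPM in the cells without stimulation. Among IF libraries the values were 2238, 2136 and 2280 CPM at 8 h and 2162, 4454 and 4419 CPM at 22 h. Among DC libraries they were 1988, 2256 and 2090 CPM and 2211, 2413 and 2242 CPM. All 6 libraries at 8 h lay below the unstimulated ones, whereas IF 22 h replicates 2 and 3 lay above them and replicate 1 lay below the DC 22 h libraries. Pfn1 fell by 0.68 ± 0.20 at IF 8 h (adjusted p = 0.0447) and fell by 0.75 ± 0.20 at DC 8 h (0.0283). The IF 8 h call was lost without unstimulated replicates 1, 2 or 3, IF 8 h replicates 1, 2 or 3, DC 8 h replicates 1 or 3 or DC 22 h replicate 1 (adjusted p 0.0529 to 0.153), and the DC 8 h call without unstimulated replicates 1, 2 or 3 or DC 8 h replicates 1, 2 or 3 (adjusted p 0.0523 to 0.124). Cap1 encodes an adenylyl cyclase-associated protein that recharges actin monomers. Levels of Cap1 were 56.7, 43.6 and 49.3 CPM in the unstimulated group. The IF groups reached 31.4, 35.5 and 27.1 CPM (8 h) and 30.7, 39.6 and 40.8 CPM (22 h), and the DC groups 31.8, 35.3 and 31.9 CPM (8 h) and 30.4, 16.1 and 32.9 CPM (22 h). Every stimulated library of Cap1 lay below the unstimulated ones, and DC 22 h replicate 2 was the lowest. Cap1 fell by 0.91 ± 0.24 at DC 22 h (adjusted p = 0.0264), a call lost without unstimulated replicates 1 or 3 or DC 22 h replicate 2 (adjusted p 0.0753 to 0.106).

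The 4 genes of filament severing and turnover all fell at 8 h with IF and 3 of them with DC, and at 22 h 1 fell with IF and 3 with DC. Gsn encodes gelsolin, a calcium-dependent severing and capping protein, and lies at chr2:35256380-35307892. Gsn was at 270.1, 247 and 251 CPM in unstimulated cells, and after 8 h at 67.1, 72.3 and 45.5 CPM with IF and 47.4, 33.8 and 54.6 CPM with DC. After 22 h it was at 83.6, 80.7 and 68.9 CPM with IF and 82.3, 33.4 and 73.5 CPM with DC. No stimulated library came near the unstimulated range. Gsn fell by 2.06 ± 0.28 at IF 8 h (adjusted p = 0.000294), fell by 2.50 ± 0.28 at DC 8 h (5.7e-05), fell by 1.72 ± 0.28 at IF 22 h (0.00117) and fell by 2.02 ± 0.28 at DC 22 h (0.000355). All 4 calls held in every refit without 1 library, and without both libraries low in mitochondrial ribosomal RNA the IF 22 h value was -1.61 (adjusted p = 0.109). Cfl1 encodes cofilin 1, the cofilin of most non-muscle cells. The unstimulated libraries held 4793, 3663 and 3973 CPM of Cfl1. The 8 h libraries held 2490, 2316 and 1924 CPM with IF and 1741, 2218 and 2188 CPM with DC, and the 22 h libraries 2465, 4198 and 3577 CPM with IF and 1754, 2306 and 1702 CPM with DC. Both groups at 8 h and DC 22 h lay wholly below the unstimulated libraries, and IF 22 h overlapped them through replicate 2. Cfl1 fell by 0.89 ± 0.19 at IF 8 h (adjusted p = 0.00933), fell by 1.02 ± 0.19 at DC 8 h (0.00336) and fell by 1.11 ± 0.19 at DC 22 h (0.00173), with the IF 8 h call lost without IF 8 h replicate 3 (adjusted p 0.0541).

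Coro1a encodes coronin 1A, which binds filaments and the Arp2/3 complex and is needed for T cell survival. Its level was 943, 986 and 944 CPM without stimulation. With IF it was 566, 614 and 531 CPM after 8 h and 596, 797 and 693 CPM after 22 h. With DC the corresponding values were 603, 486 and 646 CPM and 652, 522 and 703 CPM. All 12 stimulated libraries of Coro1a lay below the unstimulated ones. It fell by 0.75 ± 0.16 at IF 8 h (adjusted p = 0.00802), fell by 0.73 ± 0.15 at DC 8 h (0.00848) and fell by 0.61 ± 0.15 at DC 22 h (0.0215), the last call being lost without unstimulated replicates 1, 2 or 3 or DC 22 h replicates 1 or 2 (adjusted p 0.0549 to 0.0898). Wdr1 encodes an actin-interacting protein that helps cofilin. Unstimulated cells had 301, 276 and 279 CPM of Wdr1. IF-stimulated cells had 211, 219.8 and 189 CPM at 8 h and 253, 312 and 318 CPM at 22 h, and DC-stimulated cells 210.5, 198 and 223 CPM and 236, 255 and 251 CPM. The libraries at 8 h were lower than all others, and IF 22 h replicates 2 and 3 were the highest. Wdr1 fell by 0.47 ± 0.14 at IF 8 h (adjusted p = 0.0484), and this call held in 3 of 15 refits, those without DC 8 h replicate 2, IF 22 h replicate 1 or DC 22 h replicate 2 (otherwise adjusted p 0.0547 to 0.168). It was also lost with the replicate number as a block (adjusted p = 0.0670).

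Of the 3 capping protein subunits, which close the growing ends of filaments, 1 passed the threshold. Capzb, the beta subunit, ranged from 384 to 439 CPM in unstimulated cells, 265 to 306 CPM at DC 8 h and 272 to 316 CPM at DC 22 h, without overlap. It fell by 0.48 ± 0.13 at DC 8 h (adjusted p = 0.0359) and fell by 0.48 ± 0.13 at DC 22 h (0.0342). The DC 8 h call was lost without unstimulated replicates 1, 2 or 3, IF 8 h replicate 1, DC 8 h replicates 1, 2 or 3, IF 22 h replicates 2 or 3 or DC 22 h replicate 1 (adjusted p 0.0511 to 0.152), and the DC 22 h call without unstimulated replicates 1, 2 or 3, IF 8 h replicate 1, IF 22 h replicate 2 or without DC 22 h replicates 1 or 3 (adjusted p 0.0519 to 0.159). Capza1 and Capza2, the alpha subunits, had log2 fold changes against unstimulated cells from -0.15 ± 0.15 (Capza1 at DC 22 h) to 0.20 ± 0.17 (Capza2 at DC 8 h), and no adjusted p was under 0.05.

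The 8 subunits of the Arp2/3 complex, which nucleates branched filaments, had a summed share of 0.356% ± 0.010 of counts in unstimulated cells. After 8 h the share was 0.361% ± 0.033 with IF and 0.356% ± 0.032 with DC, and after 22 h 0.366% ± 0.007 with IF and 0.331% ± 0.018 with DC. Of the 8 subunits, 1 fell at 8 h with IF and 1 with DC, and at 22 h 1 fell with IF and 3 with DC. Actr3 encodes the actin-related protein 3. Actr3 stood at 499, 546 and 524 CPM in the cells without stimulation. Among IF libraries the values were 353, 412 and 376 CPM at 8 h and 444, 425 and 437 CPM at 22 h. Among DC libraries they were 399, 361 and 403 CPM and 431, 419 and 430.4 CPM. All stimulated libraries of Actr3 lay below the unstimulated ones. It fell by 0.46 ± 0.12 at IF 8 h (adjusted p = 0.0305) and fell by 0.43 ± 0.12 at DC 8 h (0.0416). The IF 8 h call was lost without unstimulated replicates 1, 2 or 3 or IF 8 h replicates 1 or 3 (adjusted p 0.0568 to 0.111), and the DC 8 h call held in 4 of 15 refits, those without IF 8 h replicate 2, IF 22 h replicate 1 or DC 22 h replicates 2 or 3 (otherwise adjusted p 0.0540 to 0.147) and was lost with the replicate number as a block (0.0612).

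Arpc1b encodes the form of the ARPC1 subunit that is prominent in blood cells. Levels of Arpc1b were 227, 239 and 261 CPM in the unstimulated group. The IF groups reached 200.4, 171 and 187 CPM (8 h) and 123, 168 and 160.4 CPM (22 h), and the DC groups 169, 190.4 and 199.7 CPM (8 h) and 194, 134 and 151 CPM (22 h). Its stimulated libraries all lay below the unstimulated ones, the lowest being IF 22 h replicate 1. Arpc1b fell by 0.69 ± 0.17 at IF 22 h (adjusted p = 0.0235) and fell by 0.60 ± 0.17 at DC 22 h (0.0372). The IF 22 h call was lost without unstimulated replicates 2 or 3 or IF 22 h replicates 1 or 3 (adjusted p 0.0644 to 0.0926) and without both libraries low in mitochondrial ribosomal RNA (-0.97, adjusted p = 0.0938), and the DC 22 h call without unstimulated replicates 1, 2 or 3, IF 8 h replicates 1 or 3, IF 22 h replicate 3 or DC 22 h replicates 2 or 3 (adjusted p 0.051 to 0.145) and with the replicate number as a block (0.0546). Arpc4 encodes a core subunit. Arpc4 was at 372, 405 and 350.1 CPM in unstimulated cells, and after 8 h at 267, 235 and 252 CPM with IF and 214, 228 and 291 CPM with DC. After 22 h it was at 253, 489 and 436 CPM with IF and 228, 226 and 187 CPM with DC. Both 8 h groups and DC 22 h lay below the unstimulated libraries, IF 22 h replicate 1 lay with them, and IF 22 h replicates 2 and 3 lay above. Arpc4 fell by 0.82 ± 0.20 at DC 22 h (adjusted p = 0.021), a call lost without unstimulated replicates 1 or 2 or DC 22 h replicate 3 (adjusted p 0.0611 to 0.0883). Arpc2, another core subunit, ranged from 1502 to 1798 CPM in unstimulated cells and from 1136 to 1275 CPM at DC 22 h. It fell by 0.42 ± 0.12 at DC 22 h (adjusted p = 0.0428), a call that held in 2 of 15 refits, those without DC 8 h replicate 2 or IF 22 h replicate 1 (otherwise adjusted p 0.0504 to 0.187) and was lost with the replicate block (0.0596). The remaining subunits Actr2, Arpc3, Arpc5 and Arpc5l had log2 fold changes from -0.46 ± 0.15 (Arpc5 at DC 22 h, adjusted p = 0.0666) to 0.10 ± 0.18 (Arpc3 at IF 8 h) and no call, although every stimulated library of Actr2 and Arpc5 lay below the unstimulated ones.

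Among 5 nucleation promoting factors and elongators, 2 fell at 8 h with IF and 2 with DC, and at 22 h 1 fell with DC, with no call for IF. Vasp encodes a protein that speeds elongation at filament ends. The unstimulated libraries held 540.5, 612 and 655 CPM of Vasp. The 8 h libraries held 312, 372 and 335 CPM with IF and 339.8, 370.2 and 337 CPM with DC, and the 22 h libraries 405, 649 and 654 CPM with IF and 400.2, 360.2 and 415 CPM with DC. Both 8 h groups and DC 22 h lay below the unstimulated libraries, and IF 22 h replicates 2 and 3 lay inside their range. Vasp fell by 0.83 ± 0.17 at IF 8 h (adjusted p = 0.00784), fell by 0.79 ± 0.17 at DC 8 h (0.00942) and fell by 0.62 ± 0.17 at DC 22 h (0.0331), with the DC 22 h call lost without unstimulated replicates 1, 2 or 3 or DC 22 h replicates 1 or 2 (adjusted p 0.0553 to 0.137). Was encodes WASP, the activator of the Arp2/3 complex in blood cells whose loss causes Wiskott-Aldrich syndrome. It ranged from 74.7 to 95.9 CPM in unstimulated cells, 48.2 to 62.1 CPM at IF 8 h and 50.8 to 58.6 CPM at DC 8 h. Was fell by 0.65 ± 0.19 at IF 8 h (adjusted p = 0.0476) and fell by 0.70 ± 0.19 at DC 8 h (0.0334). The IF 8 h call of Was held in 3 of 15 refits, those without DC 8 h replicate 2, IF 22 h replicate 1 or DC 22 h replicate 2 (otherwise adjusted p 0.0528 to 0.170) and was lost with the replicate block (0.0513), and the DC 8 h call was lost without unstimulated replicates 1 or 2 or DC 8 h replicates 1, 2 or 3 (adjusted p 0.0607 to 0.128).

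Wipf1, which encodes the WASP-interacting protein, had log2 fold changes from -0.33 ± 0.18 at DC 8 h to 0.26 ± 0.17 at IF 22 h and no call. Evl encodes a relative of VASP and had the smallest p of the 48 genes between IF and DC at 8 h. Its level was 21.6, 20.4 and 24.4 CPM without stimulation. With IF it was 31.0, 18.9 and 38.8 CPM after 8 h and 26.7, 23.8 and 26.0 CPM after 22 h. With DC the corresponding values were 21.8, 17.4 and 19.2 CPM and 27.1, 9.73 and 24.2 CPM. IF 8 h replicates 1 and 3 were the highest libraries of Evl and replicate 2 lay inside the DC 8 h range, so the groups overlapped. Wasf2 encodes WAVE2, which drives lamellipodia. Unstimulated cells had 15.1, 16.1 and 8.61 CPM of Wasf2. IF-stimulated cells had 3.57, 5.30 and 11.3 CPM at 8 h and 6.90, 0.598 and 1.63 CPM at 22 h, and DC-stimulated cells 7.72, 18.8 and 15.4 CPM and 15.3, 8.30 and 13.9 CPM. Wasf2 lay lowest in the 2 libraries low in mitochondrial ribosomal RNA, and its log2 fold change at IF 22 h was -2.16 ± 0.63 (adjusted p = 0.053), and -0.95 ± 0.64 (adjusted p = 0.681) without them.

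Of 4 filament crosslinkers, 1 passed the threshold, in all 4 comparisons. Flna encodes filamin A, which crosslinks filaments into networks and anchors them to integrins, and lies at chrX:74223461-74249820. Flna stood at 608, 639 and 642 CPM in the cells without stimulation. Among IF libraries the values were 201, 276 and 185 CPM at 8 h and 333, 373 and 326 CPM at 22 h. Among DC libraries they were 258, 181 and 252 CPM and 245, 180.1 and 226 CPM. Every stimulated library had less Flna than every unstimulated one, and the IF 22 h libraries were the highest of the stimulated ones. Flna fell by 1.51 ± 0.18 at IF 8 h (adjusted p = 9.4e-05), fell by 1.45 ± 0.18 at DC 8 h (0.000152), fell by 0.87 ± 0.18 at IF 22 h (0.00839) and fell by 1.54 ± 0.18 at DC 22 h (0.00013). All 4 calls held in every refit without 1 library, and without both libraries low in mitochondrial ribosomal RNA the IF 22 h value was -0.92 (adjusted p = 0.170). Lcp1 encodes L-plastin, the actin bundler of leukocytes. Levels of Lcp1 were 1274, 1267 and 1173 CPM in the unstimulated group. The IF groups reached 1337, 1115 and 1309 CPM (8 h) and 1360, 1319 and 1401 CPM (22 h), and the DC groups 1204, 1429 and 1265 CPM (8 h) and 1077, 1078 and 1007 CPM (22 h). At 22 h all IF libraries of Lcp1 lay above the unstimulated range and all DC libraries below it, and neither difference from unstimulated cells passed the threshold (0.14 ± 0.12 and -0.23 ± 0.12). Actn1 and Actn4, which encode alpha-actinins, had no call, and Actn4 was at 112, 28.1 and 14.3 CPM at IF 22 h, lowest in replicates 2 and 3.

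Of 4 non-muscle myosin II genes, 2 fell at 8 h with IF and 1 with DC, and at 22 h 2 fell with DC, with no call for IF. Myl6 encodes an essential light chain. Myl6 was at 1747, 1560 and 1691 CPM in unstimulated cells, and after 8 h at 1113, 1078 and 1229 CPM with IF and 937, 1004 and 1070 CPM with DC. After 22 h it was at 1248, 1660 and 1522 CPM with IF and 856, 962 and 907 CPM with DC. The 8 h groups and DC 22 h lay below all unstimulated libraries, and IF 22 h overlapped them through replicate 2. Myl6 fell by 0.55 ± 0.13 at IF 8 h (adjusted p = 0.0166), fell by 0.73 ± 0.13 at DC 8 h (0.00247) and fell by 0.88 ± 0.13 at DC 22 h (0.00064), with the IF 8 h call lost without unstimulated replicates 1 or 3 or IF 8 h replicates 1 or 2 (adjusted p 0.0544 to 0.0621). Myl12a encodes a regulatory light chain. The unstimulated libraries held 789.9, 727 and 520.4 CPM of Myl12a. The 8 h libraries held 407, 437 and 363 CPM with IF and 346, 552 and 442 CPM with DC, and the 22 h libraries 455, 441 and 404 CPM with IF and 349, 523 and 383 CPM with DC. DC 8 h and DC 22 h each had 1 library, replicate 2, inside the unstimulated range, and the other stimulated libraries lay below it. Myl12a fell by 0.75 ± 0.20 at IF 8 h (adjusted p = 0.0297), lost without unstimulated replicates 1 or 2 or IF 8 h replicates 1, 2 or 3 (adjusted p 0.0543 to 0.12), and fell by 0.70 ± 0.20 at DC 22 h (adjusted p = 0.0391), lost without unstimulated replicates 1 or 2, IF 8 h replicates 1 or 3, DC 8 h replicate 3, IF 22 h replicates 2 or 3 or DC 22 h replicates 1 or 3 (adjusted p 0.0507 to 0.17). Myl12a does not overlap the Myl12b gene described here, the other regulatory light chain gene, but shares 462 exonic bases on its strand with a second annotated record of that name (chr17:70974119-71002208), and which record the counting used is not given in the sources used here. Myl12b and Myh9, the heavy chain gene, had no call, with their lowest values at IF 8 h for Myl12b (-0.79 ± 0.24, adjusted p = 0.055) and at DC 8 h for Myh9 (-0.55 ± 0.21, adjusted p = 0.133).

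Of 6 linkers to the membrane and to integrins, 1 fell at 8 h with IF and 1 with DC, and at 22 h 3 fell with DC, with no call for IF. Tln1 encodes talin 1, which activates the integrin LFA-1. Its level was 518, 668 and 650.3 CPM without stimulation. With IF it was 319, 308 and 288 CPM after 8 h and 462, 451 and 416 CPM after 22 h. With DC the corresponding values were 364, 257 and 434 CPM and 307, 317 and 393 CPM. All stimulated libraries of Tln1 lay below the unstimulated ones. Tln1 fell by 1.00 ± 0.18 at IF 8 h (adjusted p = 0.00263), fell by 0.80 ± 0.18 at DC 8 h (0.0113) and fell by 0.85 ± 0.18 at DC 22 h (0.00712), with the DC 8 h call lost without unstimulated replicate 2 or DC 8 h replicate 2 (adjusted p 0.0513 to 0.0552). Ezr encodes ezrin, an ERM protein that ties the membrane to actin. Unstimulated cells had 385, 346 and 331 CPM of Ezr. IF-stimulated cells had 277, 283 and 234 CPM at 8 h and 228, 273 and 257 CPM at 22 h, and DC-stimulated cells 287, 258 and 317 CPM and 185, 272 and 236 CPM. The stimulated libraries again all lay below the unstimulated ones. Ezr fell by 0.62 ± 0.16 at DC 22 h (adjusted p = 0.0268), lost without unstimulated replicates 1, 2 or 3 or DC 22 h replicate 1 (adjusted p 0.0603 to 0.128).

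Msn encodes moesin, the ERM protein most used by lymphocytes. Msn stood at 469.7, 514 and 454 CPM in the cells without stimulation. Among IF libraries the values were 438, 370.0 and 462 CPM at 8 h and 378, 451 and 426 CPM at 22 h. Among DC libraries they were 441, 375 and 465 CPM and 349.7, 259.8 and 349 CPM. Both 22 h groups lay below all unstimulated libraries, with DC 22 h the lower. Msn fell by 0.59 ± 0.15 at DC 22 h (adjusted p = 0.0279), lost without unstimulated replicates 1, 2 or 3 or DC 22 h replicate 2 (adjusted p 0.0628 to 0.114). Rdx, the gene of the third ERM protein, radixin, had positive estimates, with log2 fold changes of 0.07 ± 0.20 and 0.23 ± 0.20 at 8 h with IF and DC and of 0.42 ± 0.20 and 0.51 ± 0.20 at 22 h, and no call under the TMM scaling. With library totals alone Rdx was higher by 0.85 at DC 22 h (adjusted p = 0.0136). Stk10, which encodes a kinase of ERM proteins, came closest at DC 22 h (-0.76 ± 0.23, adjusted p = 0.0536). Vcl, the vinculin gene, had at most 2.56 CPM in any library and no call.

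Rac2 encodes the Rac GTPase of blood cells. Levels of Rac2 were 1794, 1816 and 1584 CPM in the unstimulated group. The IF groups reached 685, 839.8 and 769 CPM (8 h) and 1118, 1498 and 1508 CPM (22 h), and the DC groups 972, 724 and 1067 CPM (8 h) and 1069, 736 and 1349 CPM (22 h). All stimulated libraries of Rac2 lay below the unstimulated ones, and the IF 8 h group had the lowest mean. Rac2 fell by 1.18 ± 0.20 at IF 8 h (adjusted p = 0.0018), fell by 0.91 ± 0.20 at DC 8 h (0.0108), lost without DC 8 h replicate 2 (adjusted p 0.0594), and fell by 0.72 ± 0.20 at DC 22 h (0.0352), lost without unstimulated replicates 1, 2 or 3, IF 8 h replicate 3 or DC 22 h replicates 1 or 2 (adjusted p 0.0505 to 0.139). Its broadly expressed relative Rac1 had log2 fold changes from -0.29 ± 0.14 at DC 22 h to 0.16 ± 0.14 at IF 22 h and no call. Rhoh encodes a GTPase-deficient protein that T cell receptor signalling needs. Rhoh was at 300.0, 344 and 335 CPM in unstimulated cells, and after 8 h at 149.5, 139 and 139.6 CPM with IF and 187, 155 and 189.6 CPM with DC. After 22 h it was at 205, 207 and 200.1 CPM with IF and 198, 125 and 222 CPM with DC. No stimulated library of Rhoh reached the unstimulated range. Rhoh fell by 1.19 ± 0.18 at IF 8 h (adjusted p = 0.000734), fell by 0.88 ± 0.18 at DC 8 h (0.00662), fell by 0.68 ± 0.18 at IF 22 h (0.0339) and fell by 0.85 ± 0.18 at DC 22 h (0.0083). The IF 22 h call was lost without unstimulated replicates 1, 2 or 3 or IF 22 h replicates 1, 2 or 3 (adjusted p 0.0528 to 0.127) and without both libraries low in mitochondrial ribosomal RNA (-0.67, adjusted p = 0.408). The DC 22 h call was lost with library totals alone as the scaling (-0.52, adjusted p = 0.0575) and with unstimulated and DC 22 h libraries alone in the fit (-0.83, adjusted p = 0.0573).

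Rhoa encodes the GTPase that drives myosin contraction. The unstimulated libraries held 394, 444 and 385 CPM of Rhoa. The 8 h libraries held 442, 404 and 421 CPM with IF and 349, 360.3 and 395 CPM with DC, and the 22 h libraries 307, 364 and 365 CPM with IF and 310.5, 259 and 292 CPM with DC. IF 8 h overlapped the unstimulated libraries and all DC 22 h libraries lay below them. Rhoa fell by 0.51 ± 0.14 at DC 22 h (adjusted p = 0.0291), lost without unstimulated replicates 1, 2 or 3 or DC 22 h replicates 2 or 3 (adjusted p 0.0503 to 0.138). Cdc42, the gene of the GTPase that activates WASP, and the exchange factor genes Dock2 and Dock8 had no call against unstimulated cells. Dock2, an activator of Rac in lymphocytes, stayed between -0.12 ± 0.18 and 0.14 ± 0.18 on the log2 scale. Dock8 was lowest in the libraries low in mitochondrial ribosomal RNA, at 65.6, 33.1 and 23.5 CPM at IF 22 h.

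Vim encodes vimentin, an intermediate filament protein that interlinks with actin, and had the largest fall of the 48 genes in 3 of the 4 comparisons with unstimulated cells. At DC 22 h Gsn fell by more. It lies at chr2:13573927-13582826. Its level was 341, 353 and 334 CPM without stimulation. With IF it was 42.5, 61.0 and 33.2 CPM after 8 h and 42.5, 44.3 and 45.0 CPM after 22 h. With DC the corresponding values were 46.7, 47.8 and 71.7 CPM and 83.8, 80.6 and 100.4 CPM. The unstimulated libraries lay far above all others, and DC 22 h was the highest stimulated group. Vim fell by 2.92 ± 0.22 at IF 8 h (adjusted p = 8.2e-07), fell by 2.63 ± 0.22 at DC 8 h (2.7e-06), fell by 2.96 ± 0.22 at IF 22 h (5.5e-07) and fell by 1.96 ± 0.21 at DC 22 h (5.1e-05). All 4 calls held in every refit without 1 library and without both libraries low in mitochondrial ribosomal RNA, where the IF 22 h value was -3.01 (adjusted p = 0.00147).

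**Figure D3:**
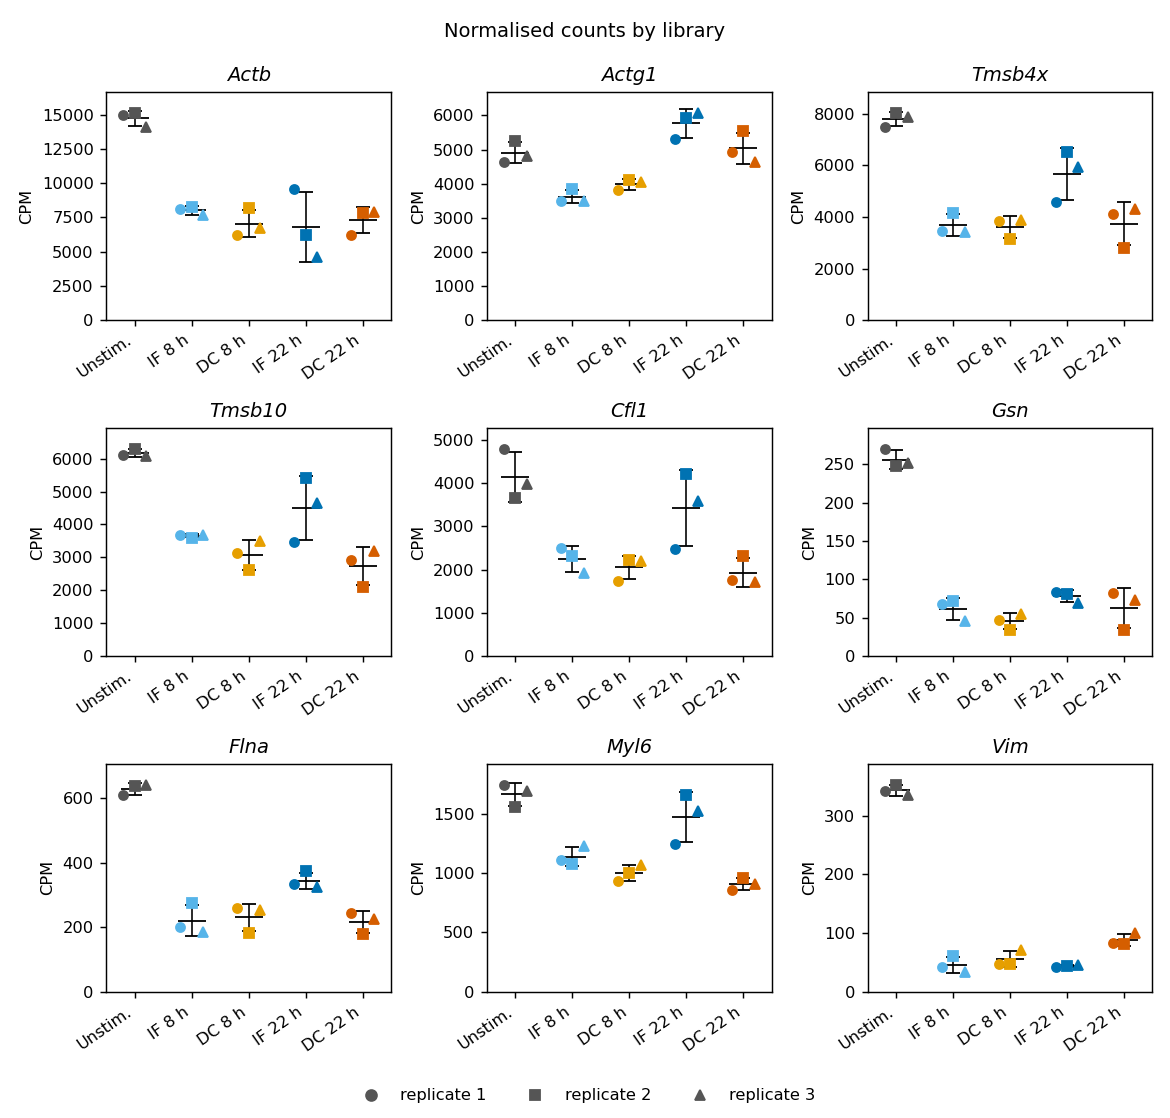
CPM (TMM-scaled counts) of 9 genes in each library; points are libraries, with replicates 1 to 3 as circle, square and triangle, and bars give the mean ± SD of each group of 3. Actb, Gsn, Flna and Vim are below the unstimulated libraries in every stimulated one, whereas Actg1 at IF 22 h (5298 to 6075 CPM) lies above them.

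Across roles, 5 genes fell in all 4 comparisons with unstimulated cells, namely Actb, Gsn, Flna, Rhoh and Vim, as did 1.08% of all genes tested. A further 8 fell in 3 (1.28% of all genes), 6 fell in 2 (2.01%) and 8 fell in 1 of them (4.39%), and these comparisons share their unstimulated libraries. The other 21 genes had no call (91.2% of all genes fell in none), and the 8 genes with 3 calls all missed the threshold at IF 22 h. Whether the change at IF 22 h differed from that at IF 8 h or DC 22 h is given by the direct comparisons below.

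At 8 h IF and DC gave 0 differences among the 48 genes by edgeR's test, with 0 members at an unadjusted p under 0.05 (8.27% of all genes) and 0 calls by DESeq2, where 0.665% of all genes differed after adjustment. Evl came closest, with a log2 fold change of 0.61 ± 0.32 (IF against DC, adjusted p = 0.661), and the largest estimate was that of Wasf2 at -1.07 ± 0.62. At 22 h 5 members differed, 4 higher and 1 lower with IF, against 2.43% of all genes (1.23% higher, 1.20% lower). Myl6 was higher with IF by 0.70 ± 0.13 (adjusted p = 0.00761), Cfl1 by 0.83 ± 0.19 (0.0278), Arpc4 by 0.88 ± 0.20 (0.0298) and Tmsb10 by 0.72 ± 0.17 (0.0321). In each of these 4 genes all IF 22 h libraries lay above all DC 22 h libraries, and replicate 1 was the lowest of the IF libraries. Vim was lower with IF, at -1.01 ± 0.21 (adjusted p = 0.0165), with all 3 IF libraries below all DC libraries. Over the 48 genes the median IF-DC difference at 22 h was 0.26, beside -0.02 for all genes, and 37 of the 48 estimates were above 0. It was 0.11, beside -0.06, without IF 22 h replicates 2 and 3.

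The 22 h differences between IF and DC depended on single libraries and on the groups fitted. The Myl6 call was lost without IF 22 h replicate 2 or without DC 22 h replicate 1 (adjusted p 0.0503 to 0.0554) and the Vim call without IF 22 h replicates 2 or 3 or DC 22 h replicate 3 (adjusted p 0.0515 to 0.0769). The Cfl1 call was lost without IF 22 h replicates 2 or 3 or DC 22 h replicates 1 or 3 (adjusted p 0.081 to 0.172), the Arpc4 call without IF 22 h replicates 2 or 3 or DC 22 h replicates 1 or 3 (adjusted p 0.0782 to 0.196) and the Tmsb10 call without IF 22 h replicates 2 or 3 or DC 22 h replicates 1 or 2 (adjusted p 0.0799 to 0.196). Without IF 22 h replicate 1 the count was 13, and it was 0 without its replicate 2 and 1 without its replicate 3. The 2.43% of all genes given above belongs to the fit of all libraries, and shares in these refits are not given. Leaving out DC 22 h replicate 1 gave 1, and replicate 3 gave 2. Without IF 22 h replicates 2 and 3 together the estimates were 0.46 for Myl6, 0.36 for Cfl1, 0.24 for Arpc4, 0.34 for Tmsb10 and -1.06 for Vim. In IF 22 h replicate 1 all 5 genes lay outside the DC 22 h range on the side of the difference. With library totals alone as the scaling, Cfl1, Myl6 and Vim were called, 3 of the 5. With IF 22 h and DC 22 h alone in the fit Vim was called, while Tmsb10, Cfl1, Arpc4 and Myl6 were not (highest adjusted p = 0.248).

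The summed dendritic cell marker share, given above, overlapped between IF and DC at 22 h, as did 14 of the 20 markers. The other markers did not overlap: 4 were lower in all IF 22 h libraries than in all DC 22 h libraries (Fscn1, Ciita, Ccl22 and Zbtb46), as were 9.11% of all genes, and 2 were higher (Itgax and Sirpa), as were 10.7%. Past the threshold were Ccl22, Ciita (adjusted p = 0.0483) and Itgax. Ccl22, a chemokine gene of mature dendritic cells, was at 0.714, 1.55 and 1.28 CPM with IF and 10.1, 11.0 and 6.40 CPM with DC (adjusted p = 0.0188). Fscn1 was at 5.83, 21.5 and 43.8 CPM with IF and 94.7, 87.5 and 72.8 CPM with DC, a difference that did not pass the test (adjusted p = 0.155). Itgax, which activated T cells can also express, was at 14.3, 14.0 and 31.8 CPM with IF and 2.05, 2.10 and 7.69 CPM with DC (adjusted p = 0.0124). The part of these markers in the 22 h differences of the members was not tested.

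**Figure D4:**
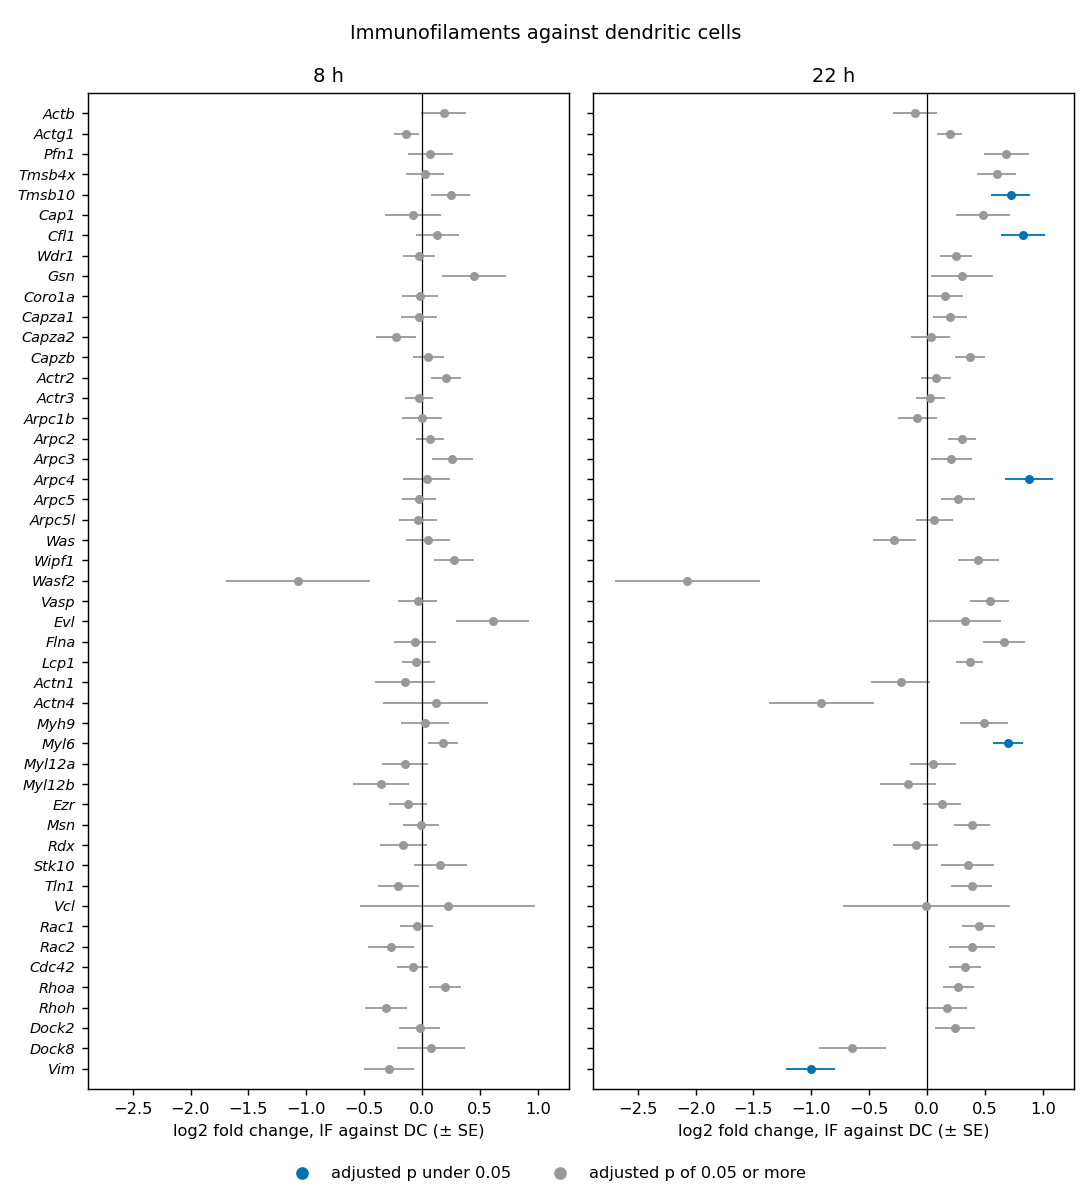
Log2 fold change of each of the 48 genes with IF against DC at 8 h (left) and at 22 h (right), with bars for the SE; blue marks an adjusted p under 0.05 and grey the rest. At 8 h there is no blue point, and at 22 h Tmsb10, Cfl1, Arpc4 and Myl6 lie to the right of 0 and Vim to the left.

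Between 8 h and 22 h with IF, 2 members rose, where 1.12% of all genes differed and 0.637% were higher. Actg1 rose by 0.67 ± 0.11 (adjusted p = 0.0083), and all 3 libraries at 22 h lay above all 3 at 8 h. That call was lost without IF 8 h replicate 3 or IF 22 h replicate 3 (adjusted p 0.0508 to 0.0514), and without both IF 22 h libraries low in mitochondrial ribosomal RNA the value was 0.55 (adjusted p = 0.448). Vasp rose by 0.75 ± 0.17 (adjusted p = 0.0449), a call held in 4 of 15 refits, those leaving out DC 8 h replicate 2, IF 22 h replicate 1, DC 22 h replicate 2 or DC 22 h replicate 3 (otherwise adjusted p 0.0564 to 0.228), lost with the IF groups alone in the fit (0.0965), and lost at 0.26 (adjusted p = 0.910) without both libraries. The count itself was 13 when IF 22 h replicate 1 was left out and 6 when DC 22 h replicate 2 was. The 1.12% of all genes belongs to the fit of all libraries, and shares in these refits are not given. The count was 0 when replicate 3 of either IF group was left out. It was 1 in 9 refits, those that left out an unstimulated library, either of the other 2 IF 8 h libraries, DC 8 h replicate 1 or 3, IF 22 h replicate 2 or DC 22 h replicate 1. Between 8 h and 22 h with DC, edgeR called 0 members (7 at an unadjusted p under 0.05, beside 9.03% of all genes, and 0 by DESeq2), where 0.480% of all genes differed after adjustment. That fit does not pair the libraries. With the replicate number as a block and the DC groups alone in the fit it also called 0 members (11 at an unadjusted p under 0.05, beside 15.9% of all genes), while the number of genes called went from 52 of 10831 to 166 of 10182. The interaction, which tests whether the IF-DC difference changed between the times, gave 0 members (14 at an unadjusted p under 0.05, beside 7.92% of all genes, and 0 by DESeq2), as it gave 0% of all genes after adjustment, and Arpc4 had its smallest adjusted p (0.84 ± 0.29, adjusted p = 0.491). Without IF 22 h replicate 1 the interaction gave 6 members, and the share of all genes in that refit is not given here.

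Several cytoskeletal genes are known targets of serum response factor (SRF), which binds a motif called the CArG box. The window from 250 bases before to 50 bases after each RefSeq start (GRCm38.p6) was searched on both strands, and 44 of the 48 genes had a promoter in the table. A CArG box lay in 4 of the 44 genes (9.09%), against 488 of 27025 genes (1.81%). The boxes are shown in capitals with the bases around them, because 3 of these genes, Actg1, Arpc4 and Myl6, are among those that differed between stimuli or times. Tmsb10, Cfl1, Vasp and Vim also differed and had no box in the window. Vcl, the remaining gene with a box, had at most 2.56 CPM and no call.
Actg1: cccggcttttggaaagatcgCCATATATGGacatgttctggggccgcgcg
Arpc4: CCTAATTTGGtgcccaacctgaggtcgggc
Myl6: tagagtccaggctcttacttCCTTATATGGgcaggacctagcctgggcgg
Vcl: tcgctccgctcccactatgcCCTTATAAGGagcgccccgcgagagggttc
In Actg1 the stretch is chr11:120348556-120348605 on the minus strand, with the box 90 to 81 bases before the start. For Arpc4 it is chr6:113377863-113377892 on the plus strand, with the box 250 to 241 bases before the start, at the edge of the window. The Myl6 stretch is chr10:128493030-128493079 on the minus strand, with the box 50 to 41 bases before a RefSeq start that lies 1136 bases inside the gene as GENCODE annotates it (chr10:128490860-128494145), while the window at the outer Myl6 start in the table held no box. The Vcl stretch is chr14:20929151-20929200 on the plus strand, with the box 227 to 218 bases before it. Actb, Arpc5l, Rac1 and Rac2 had no entry. A match describes these letters only, and binding was not measured.

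A longer list of 117 other actin regulators was examined beside the 48 genes, of which 95 were tested. At IF 8 h 14 of the 95 were called, 2 higher and 12 lower, against 7.76% of all genes, and at DC 8 h 17, 5 higher and 12 lower, against 6.82%. At IF 22 h 9 were called, 4 higher and 5 lower, against 6.08%, and at DC 22 h 20, 6 higher and 14 lower, against 7.76%. The median log2 fold change of the 95 genes was -0.33 with IF and -0.25 with DC at 8 h, and -0.10 and -0.26 at 22 h, where that of all genes lay between 0.01 and 0.04. With 1 library left out, 9 to 18 calls were made at IF 8 h (9 without IF 8 h replicate 1) and 7 to 27 at DC 8 h (7 without DC 8 h replicate 2, 10 to 11 without an unstimulated library, 27 without DC 22 h replicate 2). For IF at 22 h there were 0 to 14 (0 to 3 without an unstimulated library or IF 22 h replicates 2 or 3, 14 without DC 22 h replicate 2), and 0 without both libraries low in mitochondrial ribosomal RNA. For DC at 22 h there were 10 to 22 (10 to 12 without an unstimulated library, 11 without DC 22 h replicate 2). With library totals alone as the scaling the splits were 5 higher and 7 lower, 11 and 5, 10 and 1, and 13 and 5. Under the TMM scaling the called genes of this list lay on both sides, while every called member among the 48 was lower. The lists were not matched for level, so this contrast does not show that a fall without rises is particular to the 48 genes. A mean of at least 100 CPM was reached by 37 members. Lower calls were more common among genes at that level (13.8% against 4.72% of all genes at IF 8 h). Higher calls of the longer list included Cnn3, Myo1c, Swap70 and Cfl2, all low in CPM, but also Tpm4 (155 CPM in unstimulated cells). They also included Fscn1, which is a dendritic cell marker.

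Tagln2, which encodes the actin-bundling transgelin 2, had the smallest p of that list at IF 8 h, with a mean of 616 ± 69 CPM in unstimulated cells and 310 ± 27 CPM at IF 8 h (SD, n = 3), a log2 change of -0.99 (adjusted p = 0.00154). Cotl1, the coactosin gene, was at 419.6 ± 32.3 CPM in unstimulated cells and 184 ± 19 CPM at DC 8 h, a change of -1.19 (adjusted p = 0.000197). Marcksl1, whose product links actin to the membrane, rose from 29.7 ± 5.8 to 207 ± 69 CPM at DC 8 h, by 2.80 (adjusted p = 4.4e-05). It was also called higher at IF 8 h (1.57), at DC 22 h (1.47) and at IF 22 h (1.19, lost in 5 of 15 refits). Myo18a, an unconventional myosin gene, was at 14.6 ± 4.5 CPM in unstimulated cells and 3.05 ± 1.28 CPM at DC 22 h, a change of -2.24 (adjusted p = 0.00345). The calls of Tagln2 at IF 8 h, Cotl1 and Marcksl1 at DC 8 h and Myo18a at DC 22 h held in the 15 refits. Tpm4, which encodes a tropomyosin, rose from 155 ± 14 to 253 ± 22 CPM at IF 22 h, by 0.71 (adjusted p = 0.0138), a call lost without unstimulated replicates 2 or 3 or IF 22 h replicate 3 (up to adjusted p 0.0742) and without both libraries (0.351).

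Between IF and DC at 8 h 1 of the 95 differed, the filament bundler gene Fscn1, at 0.489 ± 0.202 CPM with IF and 142 ± 23 CPM with DC (adjusted p = 0.00101). Fscn1 is also one of the dendritic cell markers, and 0.665% of all genes differed. With 1 library left out the count was 1 to 4 (3 without IF 22 h replicate 1, 4 without DC 22 h replicate 2, and 2 without replicate 3 of IF 8 h, DC 8 h or DC 22 h). At 22 h 5 differed, 4 higher and 1 lower with IF, against 2.43% of all genes, and the count was 2 to 9 with 1 library left out (9 without IF 22 h replicate 1, 2 without its replicate 2 or 3, and 3 without DC 22 h replicate 1 or 2). Among them Zyx, the zyxin gene of adhesion sites, was at 456 ± 39 CPM with IF and 218 ± 54 CPM with DC (1.07, adjusted p = 0.00926), a call lost without IF 22 h replicate 2 (0.0531). Capg, which encodes a capping protein of the gelsolin family, was at 22.8 ± 2.1 and 7.04 ± 2.88 CPM (1.70, adjusted p = 0.00926), and its call held in the 15 refits, though not without both libraries (0.362). Abi3, a member of WAVE-type complexes, was at 8.54 ± 1.17 CPM with IF and 33.3 ± 4.6 CPM with DC (-1.96, adjusted p = 0.00867), lost without IF 22 h replicate 3 (0.0515). All 5 were lost without both libraries low in mitochondrial ribosomal RNA.

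Of the 48 genes, 21 share exonic bases with an annotated gene of another symbol, 4 of them on the same strand and 19 on the opposite one. The use of strand in the counting is not given in the sources used here, so reads of such partners could enter a member's count. Among the called genes the widest overlaps were those of Arpc1b with Pdap1 (931 bases), Cfl1 with Snx32 (468 bases) on opposite strands and that of Myl12a with the second Myl12b record given above. Arpc4 shares 283 bases with Ttll3 on the same strand. Vim, Gsn, Flna, Actb and Tmsb4x share none.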

How the data were processed

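RNA of sorted cells was sequenced with an adapted CEL-seq protocol, which reads the 3′ ends of poly(A) RNA, per the labels' protocols. The submitters' processing notes name BWA and mm10. The deposited values are whole-number counts per gene and library, not normalised, per the file contents. Whether molecular identifiers or strand were used in counting is not given in the sources used here.

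The 15 tables were joined by gene name. No table has an entry without a gene name. Genes passed filterByExpr of edgeR 4.0.16 (minimum count 10, minimum total count 15; R 4.3.3), libraries were scaled with TMM, and edgeR's quasi-likelihood test was fitted to 5 group means over all 15 libraries, with Benjamini-Hochberg adjustment over the 10831 genes tested, a threshold of 0.05 and a prior count of 0.125 for fold changes. CPM use the same scaling. The script was tested on simulated data. Alternatives were DESeq2 1.42.0, its size factors, library totals alone, other filters, a replicate block, fits with only the groups compared, and each library left out. Between DC 8 h and DC 22 h the deviations of libraries with the same replicate number correlated above 0.1 in every pair (0.160, 0.486 and 0.302, with 4 of 6 libraries closest to their own number), so that comparison was also fitted with the number as a block. This fit and leaving out IF 22 h replicates 2 and 3 together were chosen after seeing the data. Sequences came from RefSeq and GENCODE vM21 (GRCm38).

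The members, gene lists and tests were chosen with earlier results of these data known. Values per library are given for Actb, Actg1, the 24 called members with the smallest p over the comparisons and the member with the smallest p in each comparison. A few others, such as Lcp1 and Wasf2, were added after their values were seen. Library totals of 2892874 to 19806730 counts limit the precision of the lowest genes.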

Additional observations from a re-analysis of the deposited data

Results flagged for a closer look

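Between IF and DC at 22 h, 5 members passed the test of the difference itself. The log2 differences were 0.72 for Tmsb10, 0.83 for Cfl1, 0.88 for Arpc4, 0.70 for Myl6 and -1.01 for Vim. For Lcp1 the 3 IF libraries lay above all unstimulated libraries and the 3 DC libraries below them at 22 h, with a difference of 0.37 between IF and DC that did not pass the test (adjusted p = 0.126, edgeR's quasi-likelihood test). Between 8 h and 22 h with IF, Actg1 differed by 0.67 and Vasp by 0.75, both past the threshold. Without IF 22 h replicates 2 and 3, which leaves 1 library in that group, the differences were -1.06 for Vim, 0.55 for Actg1, 0.46 for Myl6, 0.36 for Cfl1, 0.34 for Tmsb10, 0.26 for Vasp and 0.24 for Arpc4. IF 22 h replicate 1 lay outside the other group, on the side of the difference, in each of these 7 calls.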

How the results depend on the processing

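With library totals alone as the scaling, 11 members were called for IF and 11 for DC at 8 h, 10 for DC at 22 h and 3 between IF and DC at 22 h. Without the filter on low counts the calls were 12 at IF 22 h, 10 between IF and DC at 22 h and 8 between 8 h and 22 h with IF. DESeq2 gave 12, 12 and 7 for these, and 32 members that differed over the 5 groups. The shares of all genes called in these alternative fits are not given here, so the counts cannot be set against a background. When the fit held the compared groups alone, 11 members were called at IF 22 h, 11 at DC 22 h and 1 between IF and DC at 22 h. Effects without IF 22 h replicates 2 and 3 are given above, since 1 library in a group limits the calls. Leaving out 1 library gave 11 to 22 calls for IF and 12 to 21 for DC at 8 h, 4 to 12 for IF and 10 to 24 for DC at 22 h, 0 to 13 between IF and DC at 22 h, 0 to 13 between the times with IF, 0 to 6 for the interaction and 15 to 25 over the 5 groups, and a dendritic cell marker difference of -0.0868 to -0.0674 percentage points at 8 h and -0.0227 to -0.0113 at 22 h. Of 71 calls of a member in a comparison, 29 held in every alternative and 0 reversed. The cause was not tested where fits with fewer genes or samples do not themselves account for a change.

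With the replicate number as a block, 17 members were called for IF and 17 for DC at 8 h, and 7 for IF and 21 for DC at 22 h. Deviations of libraries with the same number correlated at a median of 0.005 over 30 pairs, with 4 over 0.1, of which 3 join DC 8 h and DC 22 h, so the numbers were not treated as pairs in the other comparisons. Unstimulated cells paired with DC 8 h or IF 22 h had correlations of 0.030 to 0.059 and 0.017 to 0.049, and in both all 6 libraries were closest to their own number, a hint from the data and not from the design. Among the comparisons of 2 groups the block lost 5 calls, those of Wdr1 and Was at IF 8 h, Actr3 at DC 8 h, and Arpc1b and Arpc2 at DC 22 h, and of the 18 members that differed over the 5 groups 17 were kept. For DC at 22 h against 8 h the block gave 0 members, over all groups and with the DC groups alone. Counts of Vcl were low, and with 3 libraries a group the exact test of a single value cannot go below 0.1.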
